A study of Rattus norvegicus with 4 samples.

Results

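DNA repair genes were followed through 4 cultures of NR8383 cells, a rat alveolar macrophage line started from lung lavage and bought as an established line. Every culture had been exposed for 4 h to the carbon nanotube NM403, a multi-walled type, dosed by surface area at 0.8 cm²/cm², after 48 h of growth from seeding, and the labels give 20 passages. Messenger RNA was read on 1-colour Agilent rat arrays, 1 array per culture. Unexposed cultures were not analysed here, so the 4 arrays form 1 group and no response to the nanotube could be measured. The genes were 43 named repair genes, chosen by pathway, and a gene was measured where the accession of a non-control probe matched it. In all, 36 of the 43 genes had such a probe, out of 16581 genes with a named probe on the array. Probes for Ercc4, Ercc5, Msh6, Rad52, Prkdc, Atr and Fanca were not matched.

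Cells mend DNA by routes that differ in the lesion they start from. Base excision repair removes small base damage, such as the oxidised guanine that reactive oxygen leaves: a glycosylase cuts out the base, Apex1 nicks the strand, a polymerase fills the gap and a ligase seals it. Nucleotide excision repair cuts out a short stretch around bulky lesions, and mismatch repair corrects errors that replication leaves. Double-strand breaks are rejoined directly by end joining or copied from the sister chromatid by homologous recombination, and the kinases Atm, Atr, Chek1 and Chek2 signal the damage to the cell cycle.

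The arrays carried 58717 non-control spots each, of which 45.9% to 50.8% were well above background. Across the 7935 genes whose probe was detected on all 4 arrays, replicates 1 and 3 correlated with a Pearson's r of 0.996, replicates 2 and 4 with 0.992, and the other 4 pairs with 0.967 to 0.970. The arrays therefore did not scatter evenly, and each SD below describes 2 pairs of like arrays; genes are not independent, so these correlations carry no p-value. Feature Extraction put 2 measures of the negative controls of replicate 4 out of range. The dimmest probe still called well above background lay at -6.23, -6.07, -5.85 and -5.63 on the arrays in order of replicate number. A level here is a log2 signal minus its array's 75th percentile, taken over probes detected throughout, so 0 is a bright probe. They compare 1 probe across arrays and do not rank genes, and a lower level cannot tell fewer cells with a transcript from less of it per cell. Of 12 macrophage markers, 10 were detected on all arrays, among them Cd68, Csf1r and Spi1, while Adgre1 and Marco stayed at background throughout. Epithelial markers were detected on all arrays for 0 of 10 genes, fibroblast and muscle markers for 1 of 8, endothelial for 3 of 6, lymphocyte for 2 of 6 and neutrophil for 2 of 6. Summed over a list and relative to the 75th percentile, the signal ran from 109 to 146 for macrophage, 0.0347 to 0.0705 for epithelial, 0.289 to 0.399 for fibroblast and muscle, 1.46 to 2.56 for endothelial, 0.145 to 0.173 for lymphocyte and 0.327 to 0.512 for neutrophil markers. The macrophage, endothelial, lymphocyte and neutrophil sums were higher on replicates 2 and 4 than on replicates 1 and 3. The part of these in the repair genes was not tested.

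Repair genes were nearly all detected. Of the 36 measured, 32 passed detection throughout, 4 did so on some arrays and 0 stayed undetected. Over all measured genes the background was 47.9% throughout, 11.6% on some arrays and 40.4% undetected. Base excision genes were detected on all arrays for 12 of 13 members, nucleotide excision genes for 7 of 7, mismatch repair genes for 2 of 2 and double-strand break genes for 8 of 10. Of the damage kinases 2 of 3 were, and of the Fanconi anaemia pair, which act on crosslinks between strands, the measured one, Fancd2. Genes within a pathway are not replicates and the group was 1, so these shares are counts with no test. The 4 genes detected on some arrays were Neil1, Rad50, Lig4 and Chek1.

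The repair genes were near the background in which arrays read high. Among the 32 genes detected throughout, replicates 2 and 4 were the 2 highest arrays for 17 and replicates 1 and 3 for 10, where the background was 47.3% and 34.5% of all 7935 genes. Base excision genes had replicates 2 and 4 highest for 9 of 12 and replicates 1 and 3 for 2. Nucleotide excision genes divided as 4 and 1 of 7, and double-strand break genes as 3 and 4 of 8. The difference between pathways was not tested. With other scalings of the arrays the count with replicates 2 and 4 highest ran from 10 to 12 of 12 in base excision. It stayed at 3 of 8 in break repair, while over all genes it ran from 57.8% to 69.9%. Another background correction, normexp, gave lower counts of 8 of 12 and 2 of 8, and 43.4% over all genes. For 16 members replicates 2 and 4 were highest under all 4 scalings, and for 4 members, Xpa, Brca1, Brca2 and Atm, replicates 1 and 3 were.

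**Figure D1:**
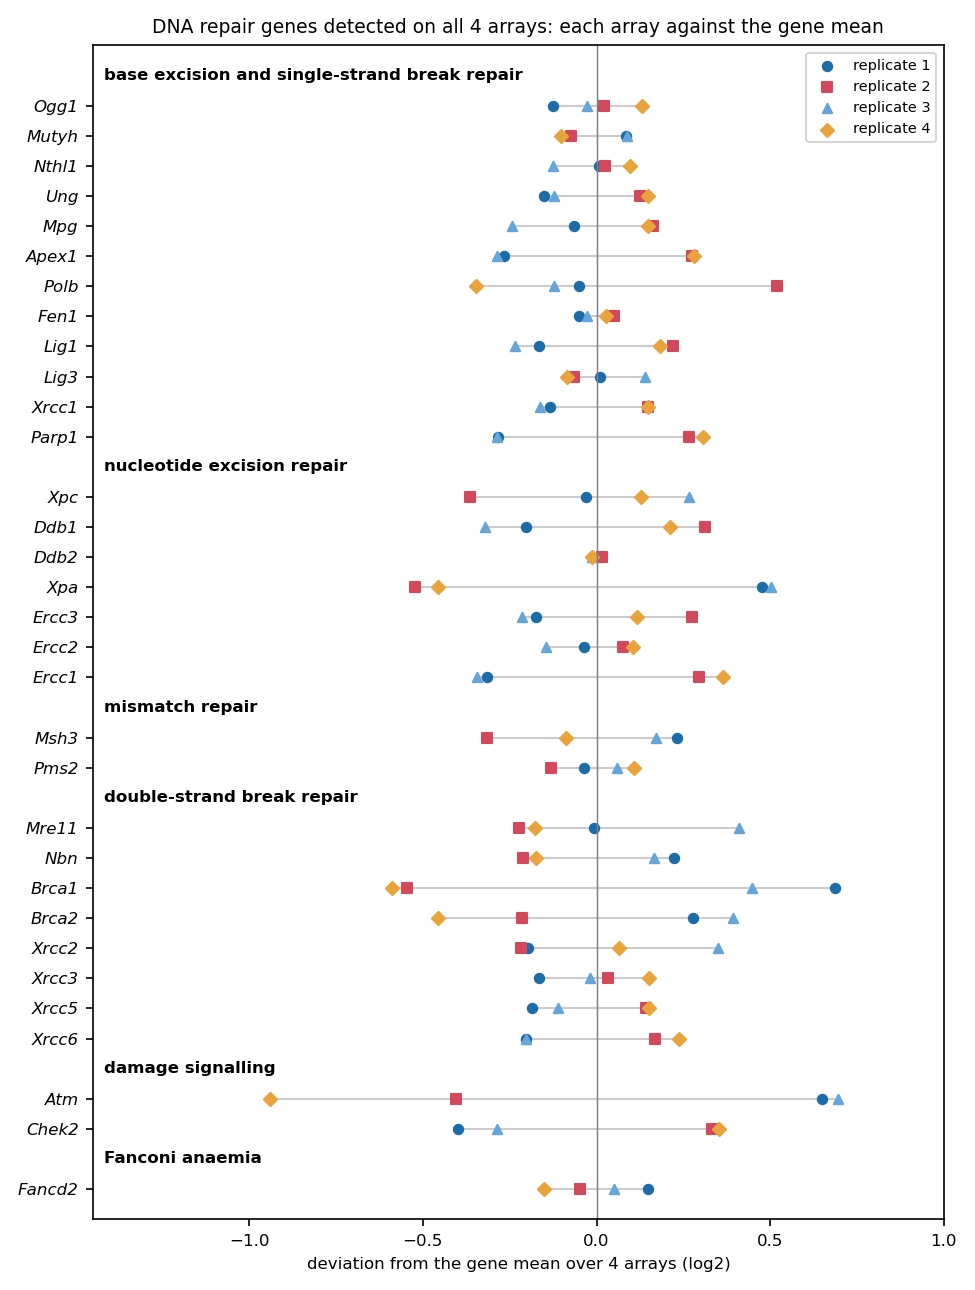
Deviation of each array from the gene's mean (log2, x axis) for the 32 repair genes detected on all 4 arrays, grouped by pathway; each symbol is 1 array and the grey line joins the lowest and highest. Replicates 2 and 4 lie to the right for 9 of the 12 base excision genes, while Brca1, Brca2, Xpa and Atm have replicates 1 and 3 to the right.

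Promoter stretches are shown for members that read high together under every scaling, the 4 genes with the widest range among those highest on replicates 2 and 4 and the 3 among those highest on replicates 1 and 3 for which the RefSeq promoter table (build GRCr8) held a window. Each is the 150 bases before the annotated start, 5′ to 3′ on the gene's strand. Capitals mark exact matches, on either strand, to CCAAT (the NF-Y type box), GGGCGG (the GC box), CACGTG (the E-box), CCGGAAG (ETS type), TTTGAA (CHR type), the NRF1-type palindrome and the E2F-type strings TTTCCCGC, TTTGGCGC and TTTCGCGC. The first 4 were highest on replicates 2 and 4 and the last 3 on replicates 1 and 3.
Ercc1, chr1:88124591-88124740, + strand: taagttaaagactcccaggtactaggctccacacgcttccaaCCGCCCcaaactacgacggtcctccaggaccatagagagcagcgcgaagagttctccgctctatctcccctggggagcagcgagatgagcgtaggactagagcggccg
Parp1, chr13:94839334-94839483, + strand: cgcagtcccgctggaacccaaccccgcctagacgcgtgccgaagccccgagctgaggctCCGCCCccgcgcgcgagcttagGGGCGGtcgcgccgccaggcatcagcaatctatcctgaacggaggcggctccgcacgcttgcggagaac
Ddb1, chr1:216677660-216677809, + strand: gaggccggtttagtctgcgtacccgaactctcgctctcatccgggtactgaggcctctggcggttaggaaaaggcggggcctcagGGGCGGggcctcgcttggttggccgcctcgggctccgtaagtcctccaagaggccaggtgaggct
Apex1, chr15:26618076-26618225, + strand: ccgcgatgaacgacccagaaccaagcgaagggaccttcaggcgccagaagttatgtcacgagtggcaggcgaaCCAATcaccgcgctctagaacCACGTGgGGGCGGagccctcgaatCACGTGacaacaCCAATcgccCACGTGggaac
Atm, chr8:62828630-62828779, - strand: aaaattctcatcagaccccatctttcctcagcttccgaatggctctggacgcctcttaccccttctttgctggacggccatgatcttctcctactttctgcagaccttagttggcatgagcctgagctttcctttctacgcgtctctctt
Brca1, chr10:86977582-86977731, - strand: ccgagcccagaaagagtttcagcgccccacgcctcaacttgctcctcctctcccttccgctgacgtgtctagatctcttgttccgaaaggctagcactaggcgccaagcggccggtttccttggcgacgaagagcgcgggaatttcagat
Brca2, chr12:4895297-4895446, + strand: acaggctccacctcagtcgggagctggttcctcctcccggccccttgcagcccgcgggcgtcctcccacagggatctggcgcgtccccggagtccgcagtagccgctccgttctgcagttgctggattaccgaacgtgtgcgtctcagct
A GC box lay in each of the first 4 stretches, and Apex1 also held 2 CCAAT boxes and 3 E-boxes. None of the strings lay in these stretches of Atm, Brca1 and Brca2. The promoters shown were chosen after their values were seen. Just outside the cut, Brca1 held a CCAAT box at -156 from the start and Atm an E2F-type string at -239. Over the longer windows counted below, 13 of 16 members highest on replicates 2 and 4 with the main scaling held a GC box. For members highest on replicates 1 and 3 it was 4 of 8, and for detected genes 63.4%. The difference between these groups was not tested.

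Over the whole windows, 250 bases before to 50 after the start, the E2F-type strings were counted first, since E2F factors switch on genes of S phase. They were present for 6 of 36 members with a window (16.7%), against 1.93% of all 27457 genes with a window. Among all 33469 windows it was 1.72%, and among the 6659 detected genes with a window 3.98%. These 36 are not the 36 measured members. Polb, Ddb2, Xpa, Nbn, Xrcc2, Prkdc and Chek2 had no window, while the unmeasured Ercc4, Ercc5, Msh6, Rad52, Atr and Fanca were counted. The 6 members were Nthl1, Lig1, Msh6, Atm, Chek1 and Fancd2. Of these, Msh6 had no probe and Chek1 was not detected on all arrays, so neither is among the detected genes. A match is a description of letters and not a bound site. The match is in capitals in these 4, whose matches begin before the start.
Chek1, chr8:44629841-44629895, - strand: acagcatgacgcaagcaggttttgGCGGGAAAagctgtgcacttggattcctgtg
Nthl1, chr10:14160174-14160229, + strand: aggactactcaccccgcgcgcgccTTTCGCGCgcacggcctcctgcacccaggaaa
Msh6, chr6:12333503-12333534, - strand: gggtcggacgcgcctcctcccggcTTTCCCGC
Atm, chr8:62828837-62828879, - strand: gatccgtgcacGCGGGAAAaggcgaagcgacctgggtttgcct
The GC box was in the windows of 25 of 36 members (33.1% of all windows, 63.4% of detected genes), the ETS-type string in 12 (8.75% and 21.5%) and the CCAAT box in 14 (37.5% and 39.8%). The E-box was in 6 (6.42% and 10.1%), the CHR-type string in 3 (18.3% and 12.1%) and the NRF1-type string in 0 (0.852% and 2.15%).

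Base excision repair was the most even of the 3 larger pathways, with a median SD between arrays of 0.16 over 12 genes, where the median over all detected genes was 0.23. This rested on the scaling. With the percentile over every probe the medians of base excision, nucleotide excision, break repair and all genes were 0.38, 0.35, 0.30 and 0.35. With the array median they were 0.29, 0.35, 0.27 and 0.30 in that order. In neither was base excision the most even. The glycosylases find and cut out damaged bases. Ogg1, which removes oxidised guanine, had a level of -2.73 ± 0.11 (SD, n = 4 for this and every level below), and Mutyh, which removes adenine placed opposite that lesion, of -3.62 ± 0.10. Nthl1, for oxidised pyrimidines, stood at -1.84 ± 0.09, Ung, for uracil, at -4.14 ± 0.16, and Mpg, for alkylated purines, at -2.88 ± 0.19. Their fold ranges from lowest to highest array lay between 1.14 and 1.32. Ogg1, Nthl1, Ung and Mpg read higher on replicates 2 and 4 than on replicates 1 and 3 without overlap. Mutyh read the other way with the main scaling. Neil1, also for oxidised bases, read -5.83, -5.81, -5.90 and -5.81 on replicates 1 to 4 and was called well above background on replicate 1 alone. Its 4 values spanned 1.07-fold and lay inside the band where the arrays' limits of detection differ.

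The later steps did not share 1 order of arrays. Apex1, the endonuclease that nicks the bare site, read 1.21, 1.75, 1.18 and 1.75 on replicates 1 to 4, and Parp1, which senses strand breaks and builds poly(ADP-ribose), read 0.75, 1.30, 0.74 and 1.34. In both genes replicates 2 and 4 lay above replicates 1 and 3 without overlap, by ranges of 1.48-fold and 1.51-fold. Polb, the gap-filling polymerase, read -3.77, -3.20, -3.84 and -4.07, so replicate 2 was high and replicate 4 low. Its SD of 0.37 was the largest of the pathway, and it was 0.16 without replicate 2. Fen1, the flap nuclease, read 0.64, 0.74, 0.66 and 0.71, an SD of 0.048 that became 0.26 with the percentile over every probe.

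Among the ligases and scaffold, Xrcc1, which holds the repair complex together, had a level of 0.67 ± 0.17, and Lig3, its partner ligase, of -0.98 ± 0.10. Lig1, which also seals the fragments of the lagging strand, read 1.13, 1.51, 1.06 and 1.48, and its other probe read 0.42, 0.88, 0.33 and 0.92. The 2 Lig1 probes thus gave the same order of high and low arrays. Lig3 had another probe at -4.10, -3.68, -3.81 and -3.81, which did not follow the order of the first.

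Repeated spots of a probe gave the spread within an array. The Parp1 probe had 8 to 9 usable spots per array with a median SD of 0.039 between spots, and the SD between arrays, 0.33, was 8.54 times as large. For Lig1, with 9 to 10 spots, the same ratio was 3.73, and for Fen1, also with 9 to 10, it was 1.27. The ratio sets the arrays against single spots; the SE of the mean over an array's Fen1 spots was 0.0076 to 0.019, below the Fen1 SD between arrays of 0.048 as well. The error that the scanner software gives each spot was first turned into an error of the mean over a probe's spots. For all detected genes the highest and lowest arrays were set against this error. They lay over 3 combined errors apart for 10 of the 32 members, where the background was 36.2%. The 10 were Polb, Lig1, Parp1, Ddb1, Xpa, Ercc1, Brca1, Brca2, Atm and Chek2. The Lig1 and Parp1 probes have 10 spots each and those of the others 1, so their errors rest on more spots. This error covers the measurement of 1 array and not the spread between cultures.

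Nucleotide excision repair held members that ran in opposite directions. Xpa, which gathers the repair proteins at the lesion, read -3.59, -4.60, -3.57 and -4.53 on replicates 1 to 4. Replicates 1 and 3 lay above replicates 2 and 4 by up to 2.04-fold, a range that was 1.94-fold without replicate 2. Ercc1, a subunit of the nuclease that cuts 5′ of the lesion, went the other way with -0.65, -0.04, -0.68 and 0.03. Ddb1, the adaptor that finds ultraviolet lesions with Ddb2, did likewise with -0.18, 0.33, -0.30 and 0.23. Its partner Ddb2 read -1.41, -1.41, -1.44 and -1.43, a 1.02-fold range. Its SD of 0.015 became 0.22 with the percentile over every probe, so the evenness of Ddb2 held for the main scaling. The helicase genes Ercc3 and Ercc2, which open the helix as parts of TFIIH, stood at 0.99 ± 0.24 and -1.78 ± 0.11, and both were highest on replicates 2 and 4. Xpc, the damage sensor, had a level of -4.16 ± 0.27, with replicates 3 and 4 highest and an SD of 0.15 without replicate 2.

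In mismatch repair, Msh3, which recognises insertion and deletion loops, read -3.62, -4.16, -3.68 and -3.93. Pms2, a subunit of the endonuclease that follows, read -3.37, -3.46, -3.27 and -3.23. Both were detected on all arrays and neither ranged over 2-fold. With 2 genes no pathway median is given. Fancd2 read -3.72, -3.91, -3.82 and -4.02, a 1.23-fold range.

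In double-strand break repair, the genes of end processing and recombination had replicates 1 and 3 highest for 4 of 6 and replicates 2 and 4 for 1, where the background was 34.5% and 47.3% of all detected genes, or 43.6% and 30.6% in the dimmest 2 of 5 bins of level. Of the 4, Brca1 and Brca2 kept that order under all 4 scalings and Mre11 and Nbn did not. No difference by role was tested. Brca1, which commits breaks to recombination, read -2.55, -3.78, -2.79 and -3.83, and Brca2, which acts in homologous recombination, read -1.88, -2.37, -1.76 and -2.61. In both, replicates 1 and 3 lay above replicates 2 and 4 without overlap, by up to 2.42-fold and 1.80-fold. Mre11, the nuclease of the break-sensing complex, read -3.81, -4.03, -3.39 and -3.98, with an SD of 0.11 without replicate 3. Its partner Nbn had a level of -1.84 ± 0.23 and was highest on replicates 1 and 3 with the main scaling.

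Rad50, the third subunit of that complex, was called on replicates 1 and 3 alone. It read -4.95 and -4.82 there, and -8.12 and -7.34 on replicates 2 and 4, where it was not well above background. Against the limits of detection of those arrays the highest array was at least 1.75-fold above. Xrcc2, which acts in homologous recombination, read highest on replicates 3 and 4 at a level of -2.87 ± 0.27. Xrcc3, of the same route, was the most even of the pathway with the main scaling, at -2.80, -2.61, -2.66 and -2.49. Its SD of 0.13 became 0.33 with the percentile over every probe, where that of Nbn was 0.039.

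The end-joining genes pointed both ways. Xrcc5 and Xrcc6, which encode the Ku80 and Ku70 parts of the ring that caps broken ends, had levels of 0.73 ± 0.17 and 1.02 ± 0.24, both highest on replicates 2 and 4. Lig4, the ligase that closes the same ends, read -3.54, -5.98, -3.84 and -5.67 on replicates 1 to 4. It was called on replicates 1, 2 and 3, and replicate 1 lay at least 4.23-fold above replicate 4, where it was not well above background. Its other probe read -5.88, -7.94, -5.99 and -7.84 and was called on replicate 1 alone.

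The damage kinases differed in the same way. Atm, which breaks activate, read -3.86, -4.91, -3.81 and -5.45. This was the widest range among members detected on all arrays at 3.10-fold, or 2.14-fold without replicate 4. Its value on replicate 4 lay close to that array's detection limit of -5.63. Chek2, the kinase that Atm activates, ran opposite with -4.16, -3.43, -4.05 and -3.41. Chek1, the kinase under Atr, read -5.85, -5.82, -5.69 and -5.86 and was called on replicates 1, 2 and 3. Its 4 values spanned 1.13-fold and, like those of Neil1, lay within the band of detection limits.

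**Figure D2:**
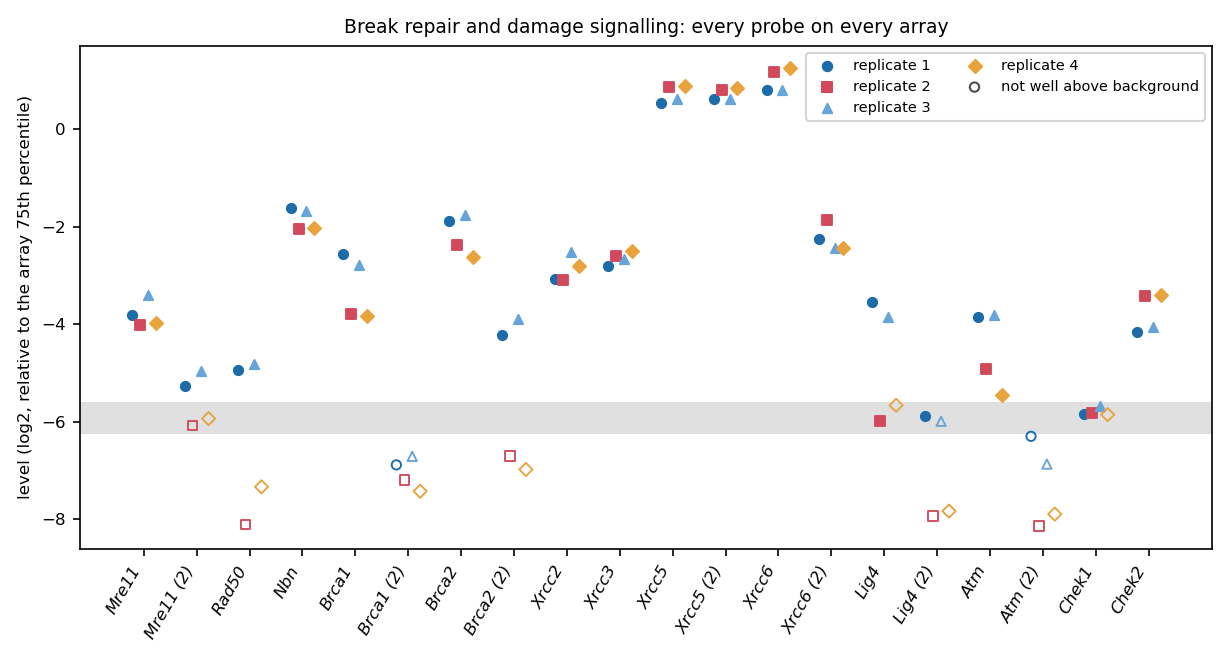
Level (log2, relative to the 75th percentile of the array, y axis) of every probe of the break repair and kinase genes on each array; (2) marks another probe of the same gene, open symbols were not well above background, and the grey band spans the detection limits of the 4 arrays. Replicates 1 and 3 lie above replicates 2 and 4 in the brighter probes of Brca1, Brca2, Lig4 and Atm and in Rad50, while Xrcc5, the brighter Xrcc6 probe and Chek2 show the opposite.

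Probes of the same gene could be compared for 10 members. Where all probes were detected on all arrays, the 2 highest arrays were the same in Mutyh, Lig1 and Xrcc5 and differed in Lig3 and Xrcc6. Detection differed between probes in 5, namely Mre11, Brca1, Brca2, Lig4 and Atm. The dimmer Brca2 probe read -4.22 and -3.90 on replicates 1 and 3 and -6.71 and -6.99 on replicates 2 and 4, where it was not well above background, a difference of at least 3.31-fold. The brighter Brca2 probe ranged over 1.80-fold, so the size of the difference depended on the probe while its order did not. The dimmer Mre11 probe read -5.27, -6.08, -4.97 and -5.94 and was called on replicates 1 and 3. The second probes of Brca1 (-6.89, -7.20, -6.72 and -7.43) and Atm (-6.30, -8.14, -6.87 and -7.90) stayed at background on every array, so their order is not read. The dimmer Xrcc6 probe read -2.26, -1.87, -2.44 and -2.43 and did not follow the brighter one.

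Differences above 2-fold were near the background in number. Xpa, Brca1 and Atm ranged over 2-fold, 3 of 32 members, where the background was 13.6% of all detected genes. In all 3 replicates 1 and 3 were highest, but the genes over 2-fold changed with the scaling. With the percentile over every probe they were Polb, Ddb1, Ercc1, Chek2 and Atm, all but Atm highest on replicates 2 and 4. With quantile normalization they were Polb, Chek2 and Atm, again all but Atm highest on replicates 2 and 4. The median SD was 0.27 in nucleotide excision repair and 0.25 in double-strand break repair, where it was 0.23 over all genes.

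The order of arrays moved with brightness, over all genes and over the members. Genes were put in 5 bins of equal size by mean level. In the dimmest bin of all detected genes replicates 2 and 4 were highest for 26.8% and replicates 1 and 3 for 42.5%, and in the brightest bin for 72.1% and 17.5%. All 8 members in the brightest bin had replicates 2 and 4 highest, as had both in the next. Of the 10 in the dimmest bin, 2 had replicates 2 and 4 highest and 6 had replicates 1 and 3. Base excision repair had 5 of its 12 genes in the brightest bin, break repair 2 of 8, Xrcc5 and Xrcc6, and nucleotide excision repair 1 of 7. Within the 2 dimmest bins, base excision genes were highest on replicates 2 and 4 for 3 of 5 and break repair genes for 1 of 5, where all genes gave 30.6%. The part of brightness in the difference between pathways was not tested.

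**Figure D3:**
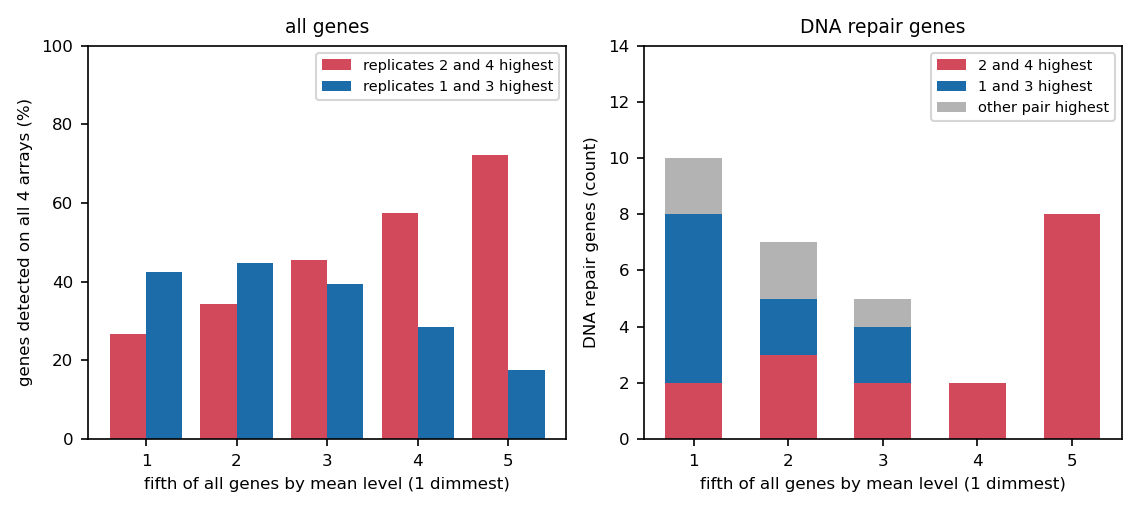
Left, share of all 7935 detected genes (%, y axis) with replicates 2 and 4 or replicates 1 and 3 as the 2 highest arrays, in 5 bins of mean level; right, number of repair genes in the same bins by their 2 highest arrays. The share with replicates 2 and 4 highest goes from 26.8% in the dimmest bin to 72.1% in the brightest, and the 8 repair genes of the brightest bin all have them highest.

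Other genes of the pathways were taken from a list of 120, of which 97 had a named probe. Of these, 83 were detected on all arrays, 6 on some and 8 on none. Among those on none were Mgmt, which takes alkyl groups off guanine directly, Neil3, a glycosylase, and Polq, the polymerase of a mutagenic kind of end joining, named here after their values were seen. Replicates 1 and 3 were highest for 37 of the 83 and replicates 2 and 4 for 31, where the background was 34.5% and 47.3% of all detected genes. That order turned under the other scalings, with 44 to 53 highest on replicates 2 and 4. By pathway, the other base excision genes had replicates 2 and 4 highest for 10 of 17 and replicates 1 and 3 for 4. The other double-strand break genes divided as 7 and 9 of 20 and the other signalling genes as 3 and 7 of 10. Of the 83, 12 ranged over 2-fold, near the background of 13.6% of all detected genes.

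The most variable of these were taken as the 2 with the largest SD in each pathway. Of the 14, 1 is not described here, and the order of arrays is given with the main scaling alone. Hltf, a ubiquitin ligase of lesion bypass, read -1.43, -3.39, -1.55 and -3.51, a 4.22-fold range. Dclre1c, the Artemis nuclease that trims ends for joining, read -2.05, -3.73, -2.16 and -3.71, a 3.19-fold range. Rfc1, the large subunit of the clamp loader, read -0.55, -1.84, -0.44 and -1.67, a 2.64-fold range. The same 2 arrays were highest for Ercc6, Cul4b, Hus1, Usp1 and Shprh, with ranges of 2.63, 2.09, 2.29, 2.27 and 2.25-fold, and for Aplf, Pms1 and Mlh3, with 1.97, 1.96 and 1.91-fold. H2ax, the histone that marks breaks, was highest on replicates 2 and 4 with a 1.61-fold range, and Fance followed neither pair, with 1.47-fold.

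The median deviations of S phase and mitosis genes were, like those of base excision genes and of all genes, above 0 on replicates 2 and 4. The median deviation from the gene mean on replicates 1 to 4 was -0.10, 0.14, -0.12 and 0.14 over the 12 base excision genes. Over 20 S phase and replication genes it was -0.11, 0.20, -0.19 and 0.18, and over 15 mitosis genes -0.16, 0.13, -0.16 and 0.17. Replicates 2 and 4 were highest for 14 of 20 S phase genes and 10 of 15 mitosis genes, where the background was 47.3% of all detected genes. By level, that background ran from 26.8% in the dimmest bin to 72.1% in the brightest. The part of brightness in these counts was not tested. Break repair gave -0.09, -0.21, 0.26 and -0.06 over 8 genes, a span of 0.47 that was 0.12 without replicate 3 and 0.31 without replicate 2. The sign for replicate 4 turned with the other scalings, to 0.12, 0.04 and 0.05. For nucleotide excision repair the values were -0.04, 0.08, -0.15 and 0.12 over 7 genes, a span of 0.26 that was 0.14 without replicate 3. Over 10 p53 targets they were 0.06, -0.07, 0.04 and -0.03, an order that turned to -0.12, 0.12, -0.16 and 0.15 with the percentile over every probe, and over all detected genes -0.04, 0.04, -0.05 and 0.05. The part of cell cycle state in the repair genes was not tested.

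**Figure D4:**
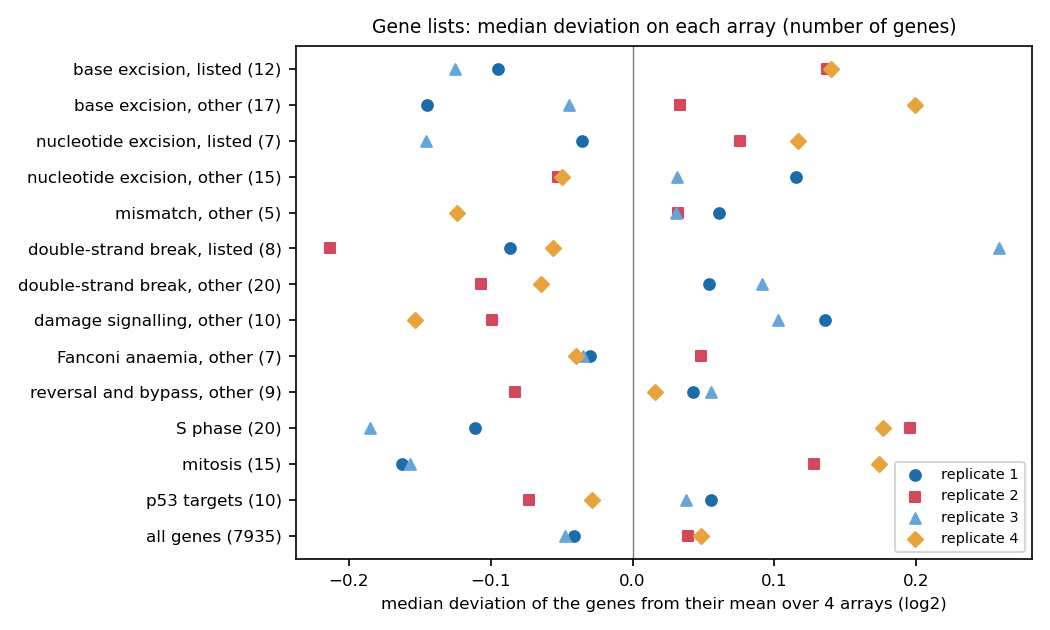
Median deviation of each gene list from the gene means on each array (log2, x axis), with the number of genes in brackets; "listed" are the 43 named repair genes and "other" the wider list. Base excision, S phase and mitosis genes lie to the right on replicates 2 and 4, the listed break repair genes lie farthest right on replicate 3 at 0.26, and all genes lie within 0.05 of 0.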

How the data were processed

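The authors deposited the output of Agilent Feature Extraction 11.0.1.1 (submitters' processing notes) for each array. The intensity column used had background subtracted and spatial trends removed array by array, per the file headers, and the design names build rn4. Other deposited columns used were the error of that intensity, median spot and background intensity, and flags for outliers and detection. Control and outlier spots were left out (623 to 1016 outliers per array) and 0 spots were saturated. Spots of a probe were averaged as log2 of the deposited intensity. Of 45598 probes, 21109 matched 1 gene through RefSeq accessions (GRCr8 table), 0 several and 24489 none. A probe was detected where over 50% of its spots were well above background. Because 34.2% of probes were detected on all arrays, under 50%, each array was scaled on the 75th percentile of those probes, which hides changes in total messenger RNA. A gene was detected where any probe was, and its level is that of the brightest one; genes counted as detected on all arrays in comparisons of levels had that probe detected throughout.

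There was 1 group, so no comparison of groups was tested; Dixon's rule alone was applied, to single arrays; python 3.11.15, pandas 2.3.3 and limma 3.58.1 were used, the last for normexp alone. The summaries were run on simulated data, with shifts in replicates 2 and 4 and less noise than between the real arrays. That run checked the code and not how reliable the counts are here. Array values are given for every member detected on some arrays, the 3 most and the 1 least variable per larger pathway, all members of the smaller pathways, members whose probes differ in detection, and the 2 most variable other genes per pathway. A few more were chosen after their values were seen, as were the promoters shown. Members, lists and rules were chosen with earlier results of these data known. The arrays' number limits the precision. All arrays lay on 1 slide. Alternatives were other scalings, normexp, probe averages, detection rules, filters on dim genes and leaving out each replicate. One of those other genes is not reported here.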

Additional observations from a re-analysis of the deposited data

Results flagged for a closer look

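In 2 of 75 sets of 4 array values the highest or lowest array stood far from the rest. Chance flags about 1 in 20 sets where the values are independent, which arrays in 2 like pairs are not. The median deviation of the other mismatch repair genes was -0.12 on replicate 4 and 0.03 to 0.06 on the others, a gap of 0.835 of the whole range. That of the other Fanconi anaemia genes was 0.05 on replicate 2 and -0.04 to -0.03 on the others, a gap of 0.887 of the range. No single repair gene or probe among those checked stood out in this way. The rule looks for 1 array apart from the rest, so it can miss genes that differ between the 2 pairs of like arrays.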

How the results depend on the processing

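Of 213 comparisons of a count, a median SD or a span of array medians with an alternative, 175 stayed within 1.5 times the reported value and 38 did not. None of these quantities can change sign, so a reversal could not be counted. The 2 highest arrays changed with the scaling for 10 of the 32 members detected throughout. With the 75th percentile taken over every non-control probe, the median deviations of all genes became -0.21, 0.23, -0.25 and 0.23 on replicates 1 to 4. The counts of members over 2-fold then were 5 in all, 1 in base excision, 2 in nucleotide excision and 0 in break repair, those with replicates 1 and 3 highest 4 in all, 0 in base excision and 2 in break repair, the spans 0.513, 0.650 and 0.641 over all members, base excision and nucleotide excision, and the base excision median SD 0.378. With the array median, the spans were 0.367, 0.472 and 0.460, the base excision median SD 0.286, the counts with replicates 1 and 3 highest 6 in all and 0 in base excision, and 0 nucleotide excision members ranged over 2-fold. With quantile normalization, 1 base excision, 0 nucleotide excision and 0 break repair members ranged over 2-fold, replicates 1 and 3 were highest for 6 in all and 1 in base excision, and the spans were 0.262 over all members and 0.265 in break repair. Normexp gave 0 nucleotide excision members over 2-fold and a span of 0.0951 over all members, and averaging probes gave 1 base excision member with replicates 1 and 3 highest. Among members brighter than the median, 0 in all, 0 in nucleotide excision and 0 in break repair ranged over 2-fold, and without a filter on detection 5 in all and 3 in break repair did. The cause of these shifts was not tested. Leaving out each replicate gave 2 to 4 members over 2-fold in all, 0 to 1 in nucleotide excision (0 without replicate 2) and 1 to 2 in break repair (2 without replicate 4), and spans of 0.140 to 0.250 in nucleotide excision and 0.120 to 0.495 in break repair. The 2 highest arrays could not be recomputed with 3 arrays. No paired analysis was possible because there was 1 group. Values near the detection limits, as in Neil1 and Chek1, cannot show differences between arrays.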
